A study of Mus musculus with 8 samples.

Results

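The genes described here are those of fibroblast growth factor (FGF) signalling at the cell surface: the receptors Fgfr1, Fgfr2, Fgfr3 and Fgfr4, the kinase-free receptor Fgfrl1, the coreceptor Il17rd, the ligands Fgf1, Fgf2 and Fgf9, and the receptor adaptor Frs2. Members were all probe sets that the platform annotation assigned to one of these 10 genes. This gave 23 of the 45101 probe sets on the array, belonging to 9 of 18194 named genes. Frs2 had no probe set under that name, so its transcript was not analysed here. Transcripts were measured in total RNA labelled as mouse cerebral cortex, with 8 Affymetrix arrays, each holding 1 sample, and every one of the 4 groups had 2 samples. The groups were FGF2 with the MEK inhibitor U0126, FGF2 with the p38 inhibitor SB202190, FGF2 alone, and a vehicle control, so each inhibitor was given only together with FGF2, and the U0126 and SB202190 arrays below are those of FGF2 plus that inhibitor. The series' title names astroglia as the responding cells, whereas the labels used here state no strain, age, dose or time, nor whether cultured cells or tissue were taken. One of the SB202190 samples, replicate 2, carried a different word for the type of treatment in its label, and was kept in its group.

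FGFs are secreted or released proteins that bind receptor tyrosine kinases together with heparan sulfate chains on the cell surface. The activated receptors phosphorylate the adaptor FRS2, which links them to the Ras, RAF, MEK and ERK kinases, and they also act through phospholipase C and PI3-kinase. In the brain FGF2 acts on neural progenitors and on astroglia, and FGFR3 is a receptor typical of astrocytes. FGFRL1 lacks the kinase domain and binds ligand without this signal, and IL17RD, also called SEF, is a transmembrane inhibitor of FGF signalling that is itself induced by it. The added growth factor was a protein, while the Fgf2 signal below is the transcript made by the cells.

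Signals are the deposited intensity values in array units, as mean ± SD over 2 arrays where not given per array. Changes are log2 differences ± SE from limma after quantile normalization, and "called" means an adjusted p under 0.05, with adjustment over all 13173 genes tested. All 9 member genes had at least 1 probe set above the filter on low signals, and 17 of the 23 probe sets passed it. Values of a gene are those of its brightest probe set on average unless another is named. Nothing said that replicates came from separate animals or cultures, so the p-values reflect sample-to-sample spread that may be purely technical, and 2 arrays a group limit the precision. An exact permutation test of 2 arrays against 2 cannot give a p below 0.333, so limma, which pools the spread over genes, was used. In bulk RNA, fewer cells of a type and less transcript per cell cannot be told apart. Median signals per array were 22.3 to 27.8, and replicates correlated across genes with r of 0.980 to 0.984. The second FGF2 array, replicate 2, was high in the added cre control, at 11087 array units against 8328 to 8988 on the other arrays. Without it, 5 of 9 members were called between FGF2 and vehicle, 4 between FGF2 with U0126 and FGF2 alone, and 0 between FGF2 with SB202190 and FGF2 alone. RNA quality, read from the ratio of 3' to 5' Actb controls, was 1.26 and 1.28 with FGF2 and U0126, and 1.31 to 1.41 in the other groups. The same ratio of the Gapdh controls did not set U0126 apart, at 0.745 and 0.758 against 0.697 to 0.777 in the other groups.

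With FGF2 the transcripts of 2 of its family's ligands, Fgf1 and Fgf2, rose and those of Fgfr3, Fgfr2, Fgfrl1 and Fgf9 fell, while Il17rd rose. The calls of Il17rd, Fgf9 and Fgfrl1 were each lost when certain single arrays were left out. U0126 lowered Fgf2 and Fgf1 and raised Fgfr3 and Fgf9 against FGF2 alone. The Fgf9 rise was at low signals and was not called with its second probe set. SB202190 lowered Fgfr2 and Fgfrl1 against FGF2 alone, in calls that were lost without either FGF2 array or without replicate 2 of SB202190. In all, 7 of 9 members were called between FGF2 and vehicle, 3 higher and 4 lower, where 37.9% of all genes tested were called, 18.9% higher and 19% lower. Between FGF2 with U0126 and FGF2 alone 4 of 9 were called, against 22.2% of all genes, and between FGF2 with SB202190 and FGF2 alone 2 of 9, against 3.07%. The median log2 change of the 9 members was -0.27, -0.05 and -0.15 in these 3 comparisons, and that of all genes was -0.00398, 0.03 and -0.00481. The lower calls with SB202190, 2 of 9, stood beside 1.73% of all genes, and the 0 higher calls beside 1.34%. With U0126, 2 members were higher and 2 lower against FGF2 alone, beside 11.7% and 10.5% of all genes. Groups of 2 arrays that do not overlap were common: 8 of 9 members had them in each of the 3 comparisons, as had 69.1%, 60.9% and 48.9% of all genes.

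**Figure D1:**
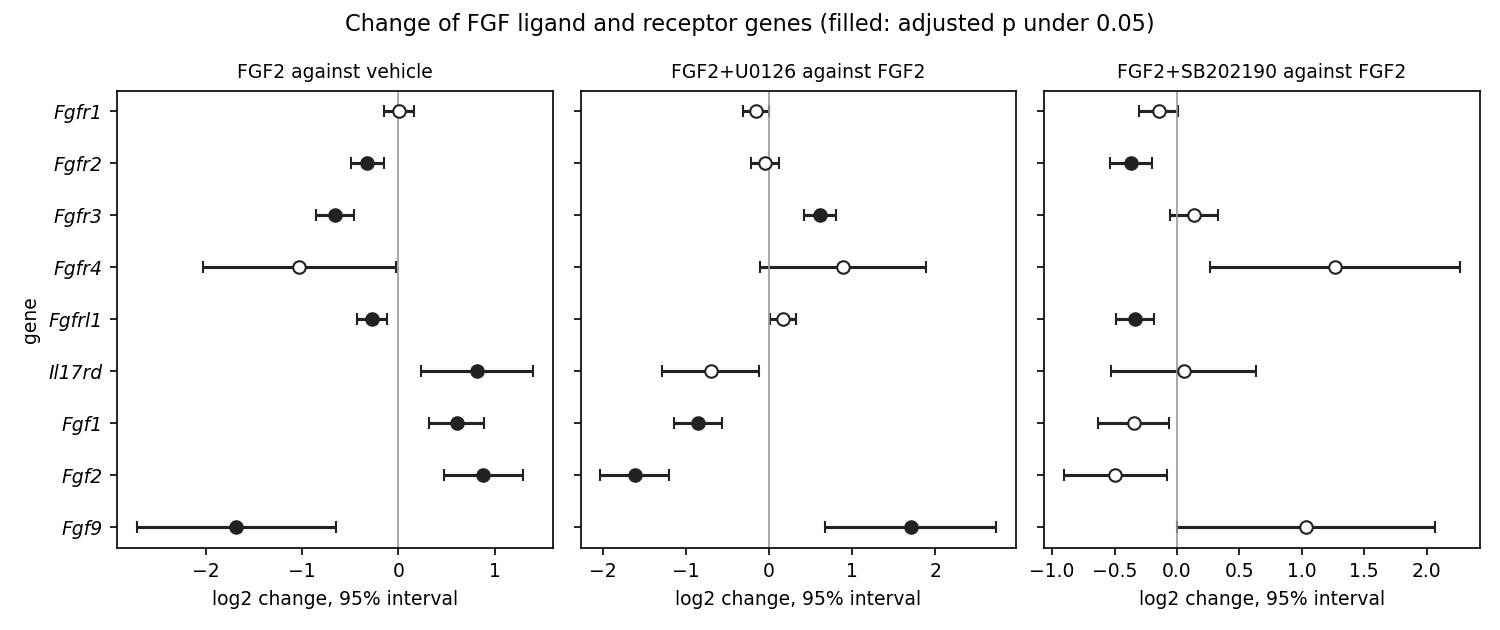
Log2 change with its 95% interval for the 9 member genes (rows) in 3 comparisons (panels), with filled points for an adjusted p under 0.05. Fgf1 and Fgf2 lie right of 0 with FGF2 and left of 0 when U0126 was added, and Fgfr3 lies the opposite way in both.

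The promoter windows of 4 members are shown, the 3 with a match to an EGR motif and that of Il17rd, which has 0. The windows of Fgfr2 and Fgf9, also called with FGF2, held 0 EGR matches and are not shown. Windows of 300 bases, 250 before the start site and 50 from it on, were taken from RefSeq (GRCm38.p6). There 8 of the 10 genes had 9 windows, and Fgfr1 and Fgf1 had none. Capitals mark matches to the letters of an EGR motif, GCGNGGGCG, on either strand.
Fgf2, chr3:37348403-37348702, plus strand: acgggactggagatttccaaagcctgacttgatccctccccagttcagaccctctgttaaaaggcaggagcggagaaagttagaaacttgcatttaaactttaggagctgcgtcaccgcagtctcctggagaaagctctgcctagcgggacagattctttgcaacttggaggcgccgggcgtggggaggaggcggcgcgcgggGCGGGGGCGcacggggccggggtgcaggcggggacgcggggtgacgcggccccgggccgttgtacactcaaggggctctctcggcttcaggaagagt
Fgfr3, chr5:33721474-33721773, plus strand: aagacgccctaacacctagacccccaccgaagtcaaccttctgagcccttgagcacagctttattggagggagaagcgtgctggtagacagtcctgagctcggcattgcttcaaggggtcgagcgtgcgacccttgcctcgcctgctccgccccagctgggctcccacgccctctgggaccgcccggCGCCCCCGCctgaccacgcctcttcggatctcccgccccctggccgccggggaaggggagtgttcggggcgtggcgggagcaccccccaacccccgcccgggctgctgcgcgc
Fgfrl1, chr5:108693979-108694278, plus strand: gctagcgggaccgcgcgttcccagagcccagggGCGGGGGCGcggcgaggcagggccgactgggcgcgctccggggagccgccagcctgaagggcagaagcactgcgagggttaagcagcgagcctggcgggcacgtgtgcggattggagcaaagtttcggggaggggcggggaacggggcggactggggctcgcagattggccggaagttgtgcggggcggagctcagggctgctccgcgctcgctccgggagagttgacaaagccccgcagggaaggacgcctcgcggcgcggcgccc
Il17rd, chr14:27038751-27039050, plus strand: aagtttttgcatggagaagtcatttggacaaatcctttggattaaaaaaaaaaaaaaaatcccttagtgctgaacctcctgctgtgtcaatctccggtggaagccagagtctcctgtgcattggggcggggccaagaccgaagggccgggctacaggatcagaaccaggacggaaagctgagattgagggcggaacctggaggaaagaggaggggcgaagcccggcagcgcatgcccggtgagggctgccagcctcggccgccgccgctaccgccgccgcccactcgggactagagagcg
The match began 47 bases before the start in Fgf2, 63 bases before it in Fgfr3 and 217 bases before it in Fgfrl1. Fgfr3 has a second RefSeq window, at chr5:33722056-33722355, which held 0 matches. In Fgf2 and Fgfrl1 the match overlapped a match to the SP1 letters, GGGCGG. An EGR match was in 3 of the 9 windows of these genes and in 5.55% of all 32851 RefSeq windows. The windows with a match had 62.7% to 73.7% G and C, and those without one 42.7% to 73%. The EGR letters are nearly all G and C, and all RefSeq windows were not matched for composition. An ETS core, CGGAAG, was in 2 of the 9 windows, Fgfrl1 and Frs2, and in 16.9% of all. The AP-1 letters TGANTCA and the CRE letters TGACGTCA were in 0 of the 9, and in 7.81% and 1.79% of all. SP1 letters were in 7 of the 9 windows and in 35.7% of all. These are matches of letters, and factor binding was not measured.

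Among the ligands, Fgf2, the basic FGF of the brain that lacks a classical secretion signal, had 57.5 and 41.5 array units with FGF2 and U0126, 119 and 101 with FGF2 and SB202190, 180 and 134 with FGF2 alone, and 86.7 and 88.4 with vehicle. Both FGF2 arrays lay above both vehicle arrays, and both U0126 arrays lay below every other array. The log2 change was 0.88 ± 0.19 for FGF2 against vehicle (adjusted p = 0.00244), a ratio of mean signals of 1.79. It was -1.61 ± 0.19 for U0126 added to FGF2 (adjusted p = 6.01e-05), a ratio of 0.315. With U0126 the level was also below vehicle, at -0.73 ± 0.19 (adjusted p = 0.0100), a call lost without replicate 2 of vehicle (adjusted p = 0.0519) or replicate 2 of FGF2 with U0126 (adjusted p = 0.0967). Adding SB202190 gave -0.49 ± 0.19, which was not called (adjusted p = 0.201), with a 95% interval from -0.91 to -0.08. The directly compared inhibitors differed by -1.12 ± 0.19, U0126 being lower (adjusted p = 9.46e-04). In order of level from low to high the groups were FGF2 with U0126, vehicle, FGF2 with SB202190 and FGF2, and of the neighbours in this order the first pair alone was called.

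Fgf1, the acidic FGF that binds all FGF receptors, had the same order of groups. Its signal was 116 and 144 with FGF2 and U0126, 196 and 171 with FGF2 and SB202190, 240 and 224 with FGF2, and 160 and 152 with vehicle. Both FGF2 arrays were the highest of the 8 and both U0126 arrays the lowest. FGF2 changed it by 0.61 ± 0.13 (adjusted p = 0.00254), and U0126 changed it by -0.85 ± 0.13 against FGF2 (adjusted p = 4.91e-04). With SB202190 the change was -0.35 ± 0.13 (adjusted p = 0.191, 95% interval -0.63 to -0.06). U0126 lay below SB202190 by -0.51 ± 0.13 (adjusted p = 0.0138), a call lost without replicate 1 of either inhibitor group (adjusted p = 0.121 and 0.114). Against vehicle, neither inhibitor group was called, at -0.25 ± 0.13 with U0126 and 0.26 ± 0.13 with SB202190 (adjusted p = 0.178 and 0.152). With median centring SB202190 against vehicle was called for Fgf1, at 0.44 (adjusted p = 0.0231), and likewise for Fgf2, at 0.53 in place of 0.39 (adjusted p = 0.0324), where the median of all genes shifted to 0.18. A second probe set, 1450869_at, was also called higher with FGF2, at 0.43 ± 0.15, and lower with U0126, at -0.63 ± 0.15 (adjusted p = 0.0421 and 0.0117). When all 3 probe sets of the gene were averaged, including 1 below the filter, these changes were 0.55 and -1.03 and not called.

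Fgf9, a ligand made by neurons and glia, was near the lower limit of the measured range. It had 35.9 and 22 array units with FGF2 and U0126, 16.2 and 17.4 with FGF2 and SB202190, 4.48 and 12.4 with FGF2, and 28 and 36.9 with vehicle. The FGF2 arrays were the lowest, and the U0126 and vehicle arrays overlapped. FGF2 changed it by -1.68 ± 0.48 (adjusted p = 0.0130) and U0126 by 1.70 ± 0.48 against FGF2 (adjusted p = 0.0210). With a pseudocount of 16 in place of 1.77 these values were -0.89 and 0.91, and without replicate 1 of FGF2, the lower array, they were -1.09 and 1.11 and not called (adjusted p = 0.112 and 0.156). The first was also lost without replicate 2 of vehicle and the second without replicate 1 of FGF2 with U0126 (adjusted p = 0.0973 and 0.141). SB202190 against FGF2 gave 1.03 ± 0.48, not called (adjusted p = 0.291). Its other probe set, 1438718_at, had -0.84 ± 0.53 and 0.10 ± 0.53 (adjusted p = 0.265 and 0.925), so the rise with U0126 was seen with 1 of 2 probe sets. That rise was also not called without the variance trend (adjusted p = 0.0532) or with the mean of the probe sets, at 0.90 (adjusted p = 0.163).

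**Figure D2:**
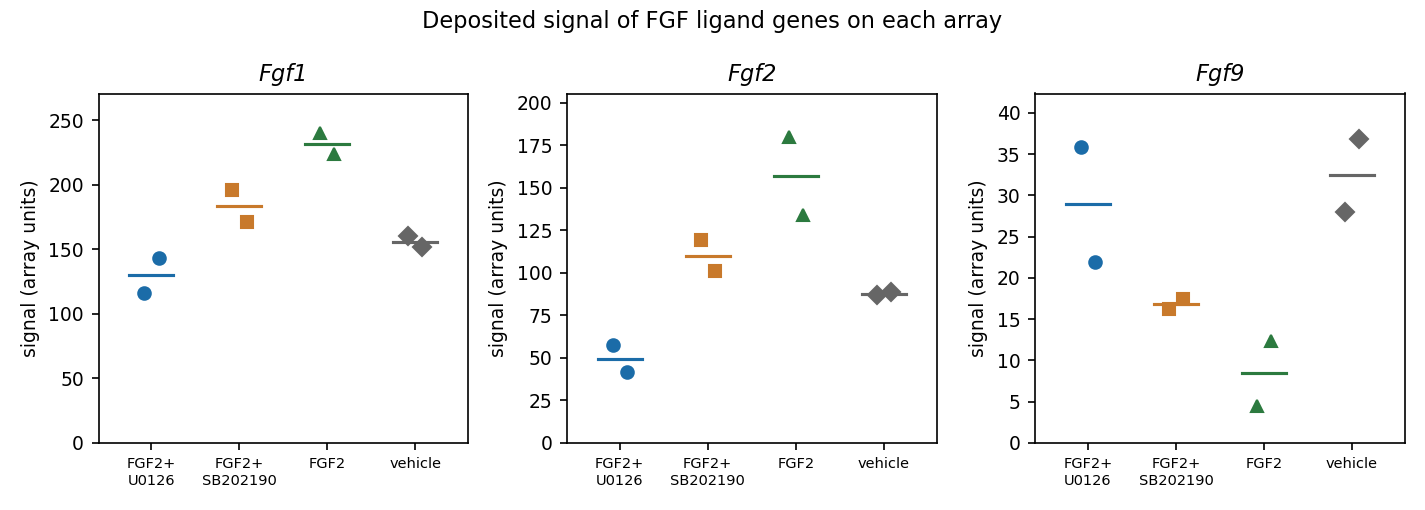
Deposited signal in array units (y axis from 0) of the 3 ligand genes in the 4 groups (x axis), with a point for each array and a line at the mean of 2. For Fgf1 and Fgf2 the 2 FGF2 arrays are the highest and the 2 U0126 arrays the lowest, and Fgf9 lies between 4.48 and 36.9 array units.

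Of the receptor kinases, Fgfr3 moved the opposite way to Fgf1 and Fgf2. It had 498 and 469 array units with FGF2 and U0126, 323 and 366 with FGF2 and SB202190, 320 and 308 with FGF2, and 500 and 487 with vehicle. The U0126 arrays overlapped the vehicle arrays, and all 4 of these lay above the FGF2 and SB202190 arrays. The log2 change was -0.66 ± 0.09 for FGF2 against vehicle (adjusted p = 6.05e-05) and 0.61 ± 0.09 for U0126 added to FGF2 (adjusted p = 3.09e-04). FGF2 with U0126 against vehicle gave -0.04 ± 0.09, with a 95% interval from -0.24 to 0.15 (adjusted p = 0.758). With SB202190 Fgfr3 was still below vehicle, at -0.52 ± 0.09 (adjusted p = 4.38e-04), and below U0126, the inhibitors differing by 0.48 ± 0.09 (adjusted p = 0.00177). These 4 calls held under all 20 alternatives of processing and left-out arrays. The alternative with all probe sets could hardly lose a call, since it took the smallest adjusted p among the probe sets of a gene.

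The second Fgfr3 probe set, 1425796_a_at, had 154 and 149 array units with FGF2 and U0126, 78.5 and 69 with FGF2 and SB202190, 108 and 112 with FGF2, and 138 and 151 with vehicle. Its changes had the same sign with FGF2, at -0.35 ± 0.14, and with U0126, at 0.43 ± 0.14, without being called (adjusted p = 0.0808 and 0.0536). With SB202190 the probe sets parted: this one had -0.56 ± 0.14 against FGF2 (adjusted p = 0.0680) and the first 0.14 ± 0.09 (adjusted p = 0.478). Both were called higher with U0126 than with SB202190, the second at 0.99 ± 0.14 (adjusted p = 4.28e-04). The ending of its name marks a probe set that can match several transcripts of a gene.

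Fgfr2, the receptor that binds Fgf7 and Fgf10 in one of its splice forms, fell with FGF2 and was lowest with SB202190. It had 466 and 469 array units with FGF2 and U0126, 390 and 354 with FGF2 and SB202190, 481 and 479 with FGF2, and 591 and 592 with vehicle. Both vehicle arrays were above the rest and both SB202190 arrays below them. The change was -0.32 ± 0.08 for FGF2 against vehicle (adjusted p = 0.00493) and -0.37 ± 0.08 for SB202190 added to FGF2 (adjusted p = 0.0235). Adding U0126 gave -0.05 ± 0.08, with an interval from -0.21 to 0.12 (adjusted p = 0.727), and the level stayed below vehicle at -0.37 ± 0.08 (adjusted p = 0.00257). U0126 and SB202190 differed by 0.32 ± 0.08 (adjusted p = 0.00951), and by 0.05 ± 0.10 with the second probe set, 1420847_a_at (adjusted p = 0.813). That probe set was called lower with U0126 than with FGF2, at -0.34 ± 0.10 (adjusted p = 0.0321), and had -0.38 ± 0.10 with SB202190 (adjusted p = 0.0700). For FGF2 against vehicle it had -0.23 ± 0.10, not called (adjusted p = 0.0931). When all 3 probe sets of the gene were averaged, including 1 below the filter, the FGF2 and SB202190 changes were not called (adjusted p = 0.527 and 0.609). The SB202190 call of the first probe set was lost without either FGF2 array or without replicate 2 of SB202190 (adjusted p = 0.137, 0.138 and 0.198). With each array centred on its median, a setting that moved the median change of all genes between FGF2 and vehicle to 0.16, the FGF2 effect was -0.10, or -0.26 relative to that shift, and not called.

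Fgfr1, the main FGF receptor of neural progenitors, had 883 and 955 array units with FGF2 and U0126, 931 and 913 with FGF2 and SB202190, 1096 and 961 with FGF2, and 994 and 1003 with vehicle. The FGF2 arrays lay on both sides of the vehicle arrays. FGF2 gave 0.01 ± 0.07 with a 95% interval from -0.15 to 0.16 (adjusted p = 0.957). With median centring the value was 0.24, or 0.08 relative to the shift of all genes, and not called. The inhibitors gave -0.16 ± 0.07 with U0126 and -0.15 ± 0.07 with SB202190 (adjusted p = 0.138 and 0.326). None of its 3 probe sets was called in any of the 6 comparisons. Fgfr4, a receptor of liver and muscle, was at low signals, 16.2 and 37.5 with FGF2 and U0126, 31.8 and 33.1 with FGF2 and SB202190, 18.3 and 8.39 with FGF2, and 36.3 and 26.5 with vehicle. It was not called in any comparison, with -1.03 ± 0.46 for FGF2 against vehicle (adjusted p = 0.0997), and was called at -1.52 without replicate 1 of FGF2 (adjusted p = 0.0478). Its other 4 probe sets were below the filter.

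**Figure D3:**
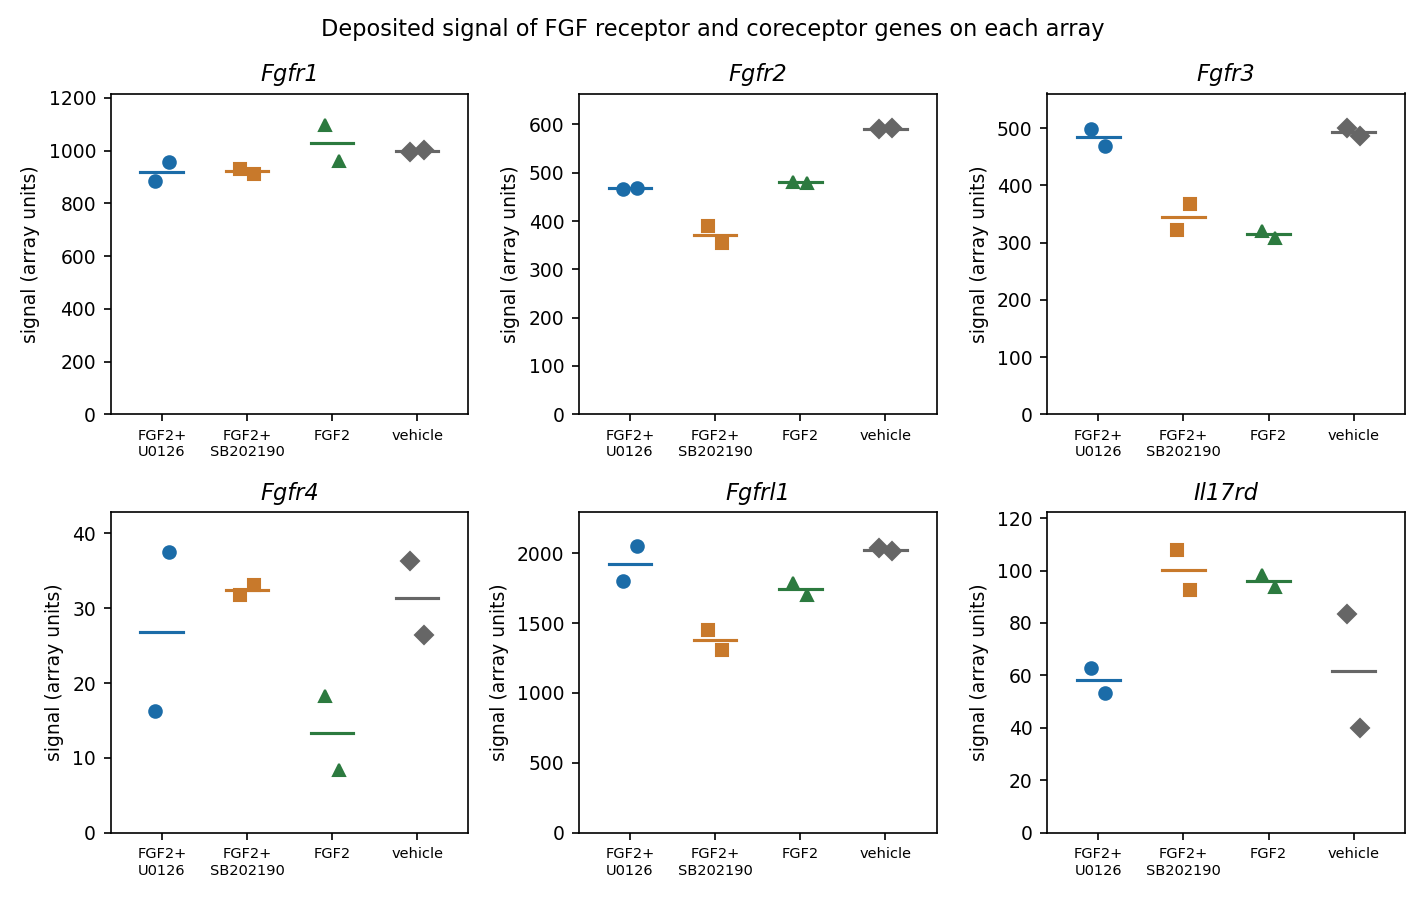
Deposited signal in array units (y axis from 0) of the receptor kinases, Fgfrl1 and Il17rd in the 4 groups (x axis), with a point for each array and a line at the mean of 2. Fgfr3 lies between 469 and 500 with U0126 and with vehicle and between 308 and 366 in the other groups, and the vehicle arrays of Il17rd lie at 83.3 and 40.

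Fgfrl1, the receptor without a kinase, was lowest with SB202190. Its signal was 1802 and 2049 with FGF2 and U0126, 1448 and 1308 with FGF2 and SB202190, 1787 and 1698 with FGF2, and 2034 and 2013 with vehicle. Both SB202190 arrays were below all others, and the U0126 arrays spanned the vehicle arrays. SB202190 changed it by -0.33 ± 0.07 against FGF2 (adjusted p = 0.0230) and by -0.61 ± 0.07 against vehicle (adjusted p = 1.66e-05), and it lay 0.50 ± 0.07 higher with U0126 than with SB202190 (adjusted p = 2.11e-04). The second probe set, 1451912_a_at, gave -0.56 ± 0.07, -0.49 ± 0.07 and 0.49 ± 0.07 in these comparisons (adjusted p = 0.00295, 2.76e-04 and 6.73e-04). The first of the 3 calls was lost without either FGF2 array or without replicate 2 of SB202190 (adjusted p = 0.174, 0.0886 and 0.219). FGF2 against vehicle gave -0.27 ± 0.07 (adjusted p = 0.00790), but 0.07 ± 0.07 with the second probe set (adjusted p = 0.560), and the value was -0.02 with median centring, or -0.18 relative to the shift of all genes. That call was also lost without replicate 1 of vehicle or replicate 2 of FGF2 (adjusted p = 0.0548 and 0.0798).

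Il17rd, the coreceptor that inhibits FGF signalling, had 62.9 and 53.2 array units with FGF2 and U0126, 108 and 92.5 with FGF2 and SB202190, 98.2 and 93.9 with FGF2, and 83.3 and 40 with vehicle. The vehicle arrays lay far apart, one of them below every other array, and the other groups were tighter. It was called higher with FGF2 against vehicle, at 0.81 ± 0.27 (adjusted p = 0.0288), and higher with FGF2 and SB202190 against vehicle, at 0.87 ± 0.27 (adjusted p = 0.0218). Without replicate 2 of vehicle these were 0.29 and 0.34 and not called (adjusted p = 0.328 for the first), and the first was lost without either FGF2 array (adjusted p = 0.111 and 0.0942), as was the second without either SB202190 array (adjusted p = 0.133 and 0.0543). U0126 against FGF2 gave -0.70 ± 0.27 (adjusted p = 0.0808), with groups that did not overlap, and the call was made at -0.71 when either vehicle array was left out (adjusted p = 0.0140 and 0.0108). SB202190 against FGF2 gave 0.05 ± 0.27, with an interval from -0.53 to 0.63 (adjusted p = 0.950). The second probe set, 1452471_at, at 9.07 to 27.3 array units, had 0.80 ± 0.47 with FGF2 and -0.75 ± 0.47 with U0126, neither called (adjusted p = 0.237 and 0.329).

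**Figure D4:**
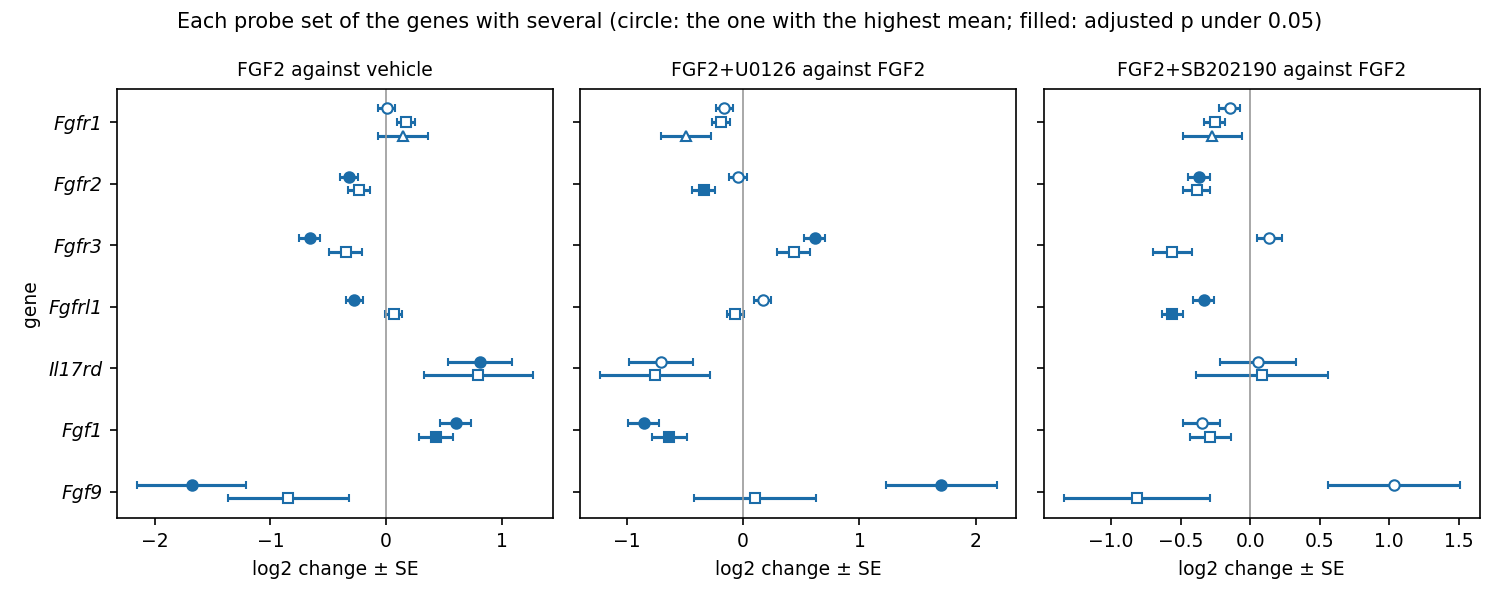
Log2 change ± SE of each tested probe set of the 7 genes with more than 1 (rows) in 3 comparisons (panels), with circles for the probe set of highest mean and filled symbols for an adjusted p under 0.05. The probe sets of Fgf1 lie on the same side of 0 in every panel, and those of Fgfr3 and Fgf9 lie on opposite sides of 0 with SB202190.

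Across the 17 probe sets tested, 8 were called between FGF2 and vehicle, 4 higher and 4 lower, where 30.5% of all 27059 probe sets were called. U0126 against FGF2 called 6, where the share of all was 16.3%, and SB202190 against FGF2 called 3, against 1.9% of all. Against vehicle, 3 probe sets were called with FGF2 and U0126, where 24.8% of all were, and 8 with FGF2 and SB202190, where 29% were. Between U0126 and SB202190 7 were called, beside 16.7% of all. Compared directly, U0126 and SB202190 differed in 5 of the 9 member genes, where 22.7% of all genes were called: Fgfr2, Fgfr3 and Fgfrl1 were higher with U0126, and Fgf1 and Fgf2 lower. The higher share of all genes was 12.4% and the lower 10.3%. Against vehicle, 2 of 9 were called with FGF2 and U0126, both lower, beside 31.7% of all genes, namely Fgfr2 and Fgf2, and 15.1% of all genes were lower and 16.7% higher. With FGF2 and SB202190 4 of 9 were called against vehicle, beside 35.9% of all genes, with Fgfr2, Fgfr3 and Fgfrl1 lower and Il17rd higher, where 17.9% of all genes were lower and 18.1% higher. Arrays did not overlap between the groups in 4, 8 and 7 of the 9 members for U0126 against vehicle, SB202190 against vehicle and U0126 against SB202190, as in 64.4%, 67.6% and 60.1% of all genes. The comparisons share arrays and are not independent.

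Other genes of the pathway were counted from lists of ligands, heparan sulfate genes, receptor partners, adaptors, kinase cascades and feedback genes. Counts on these lists stand beside 18.9% of all genes higher and 19% lower with FGF2, and 11.7% higher and 10.5% lower when U0126 was added. Among other FGF ligands 9 of 19 were above the filter, and with FGF2 2 of them, Fgf7 and Fgf16, were called higher and 0 lower, a share near the 18.9% of all genes. Fgf7, a ligand of one Fgfr2 splice form, had 146 ± 21.2 array units with FGF2 and U0126, 156 ± 16.7 with FGF2 and SB202190, 194 ± 19.6 with FGF2 and 121 ± 4.4 with vehicle. It changed by 0.72 ± 0.14 with FGF2 (adjusted p = 0.00127) and by -0.43 ± 0.14 when U0126 was added (adjusted p = 0.0481). Fgf16 was at low signals, 22.7 ± 6.86 with FGF2 and 8.71 ± 0.0733 with vehicle.

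Heparan sulfate, the chain that FGFs need to bind their receptors, is carried by core proteins of which 11 were tested, 1 higher and 2 lower with FGF2, no more than the 18.9% and 19% of all genes. The glypicans Gpc6 and Gpc4 had -0.86 ± 0.11 and -0.40 ± 0.06, and the syndecan Sdc4 had 0.21 ± 0.08 (adjusted p = 2.58e-05, 2.52e-04 and 0.0436). With U0126 added, Sdc4 had -0.92 ± 0.08 and Sdc1 -0.80 ± 0.11, while Gpc1 had 0.36 ± 0.10 (adjusted p = 2.87e-06, 1.58e-04 and 0.0151). In all 3 core proteins were lower and 1 higher with U0126, beside 10.5% and 11.7% of all genes. Of 17 enzymes of the chain 4 were higher and 3 lower with FGF2, shares near the 18.9% and 19% of all genes. The sulfatases Sulf1 and Sulf2, which remove 6-O-sulfates from the chain, had -0.72 ± 0.09 and -0.61 ± 0.07, and Ext2, a subunit of the chain polymerase, had 0.48 ± 0.07. Sulf1 was lower still with U0126, at -0.49 ± 0.09, and the sulfotransferase Hs2st1 had -0.55 ± 0.07 (adjusted p = 0.00204 and 9.90e-05). Extl1 went the other way with U0126, at 1.20 ± 0.24 (adjusted p = 0.00270). In all 3 enzymes were higher and 2 lower with U0126, beside 11.7% and 10.5% of all genes.

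Of 10 further receptor partners 2 were higher and 0 lower with FGF2, the higher share being near the 18.9% of all genes. With U0126 added 4 were lower and 0 higher, beside 10.5% and 11.7% of all genes. The coreceptor Nrp1 had 0.35 ± 0.07 with FGF2 and -0.64 ± 0.07 with U0126 added, and the cadherin Cdh2 had 0.31 ± 0.08 and -0.39 ± 0.08. Flrt2, a membrane protein that binds FGF receptors, had -0.83 ± 0.13 with U0126 (adjusted p = 6.24e-04). Of 19 adaptors 3 were higher and 3 lower with FGF2, no more than the 18.9% and 19% of all genes. Gab1, the docking protein recruited through FRS2, had 472 ± 7.63 array units with FGF2 and U0126, 272 ± 19.5 with FGF2 and SB202190, 333 ± 11.7 with FGF2 and 902 ± 87 with vehicle. Its change was -1.45 ± 0.09 with FGF2 (adjusted p = 7.15e-08) and 0.49 ± 0.09 with U0126 added (adjusted p = 0.00194). Sh3kbp1, a CBL-binding adaptor of receptor uptake, had 0.92 ± 0.12 and -0.92 ± 0.12.

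In the Ras-ERK cascade 10 genes were tested, 3 higher and 1 lower with FGF2, beside 18.9% and 19% of all genes, among them Rasa1, a Ras GTPase activator, at 0.73 ± 0.08 and Braf at -0.68 ± 0.10. Of 13 genes of the p38 cascade FGF2 raised 7 and lowered 1, against the same shares of all genes, with Mapkapk3 at 1.04 ± 0.11, Map2k3 at 0.83 ± 0.11 and Rps6ka5 at -0.96 ± 0.17. Of 18 feedback and target genes FGF2 raised 14 and lowered 1, beside 18.9% and 19% of all genes, and the list's median was 1.31. The ERK phosphatase Dusp6 had 2.24 ± 0.07 and the Ras-RAF inhibitor Spred2 had 1.76 ± 0.07. U0126 lowered 7 of these 18 against FGF2 alone and raised 0, beside 10.5% and 11.7% of all genes. Egr1 had -1.37 ± 0.09 and Errfi1 had -1.04 ± 0.09. The Egr1 signal was 530 ± 28 array units with FGF2 alone and 538 ± 2.41 with vehicle. Against vehicle, 15 of the 18 were called higher with FGF2 and U0126, and 2 lower. These counts stood beside 16.7% and 15.1% of all genes, and the list's median was 1.04. With SB202190 against FGF2 alone, 0 genes were called on the other 7 lists and 3 on the feedback list, beside 3.07% of all genes. Egr1 and Dusp6 were higher at 0.54 ± 0.09 and 0.36 ± 0.07, and Fos was lower at -0.58 ± 0.11. The feedback list was chosen with its direction in these data known.

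**Figure D5:**
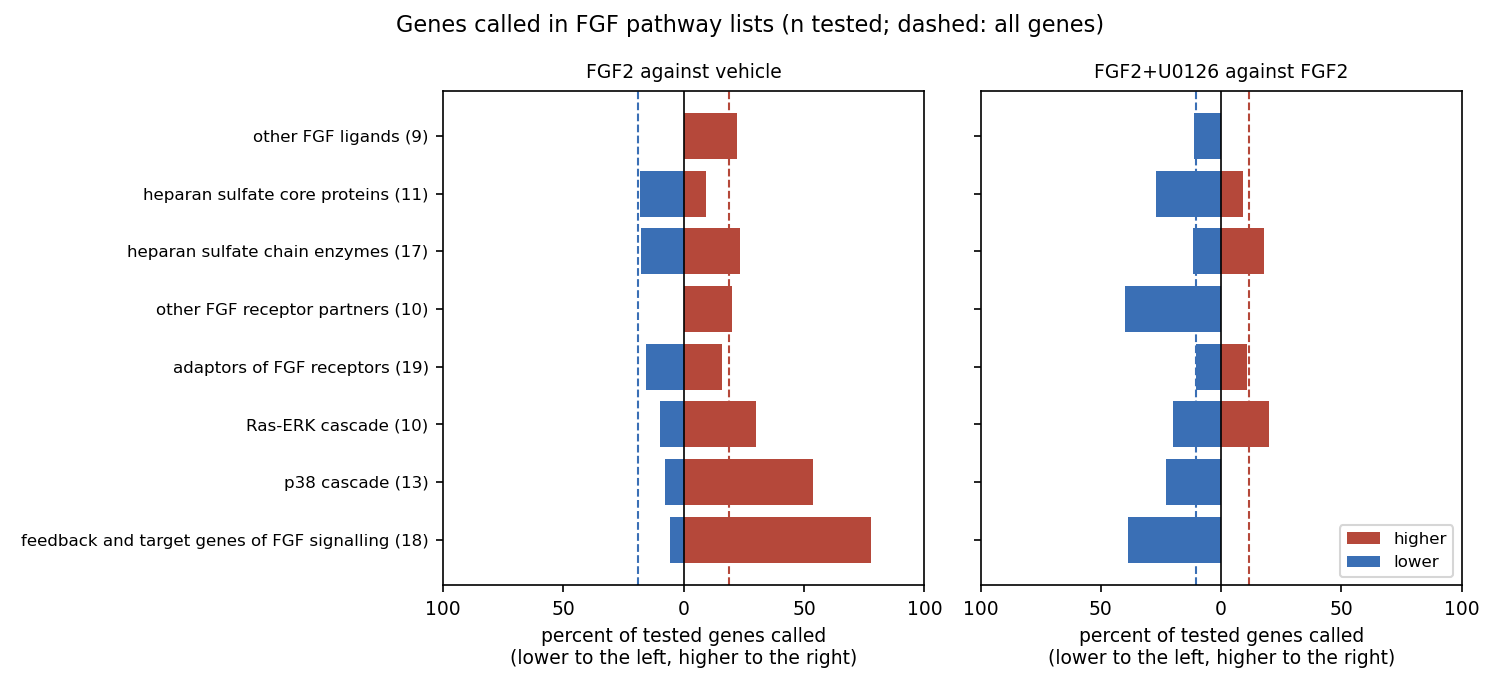
Percent of the tested genes of each list that were called higher (right, red) or lower (left, blue) in 2 comparisons (panels), with the number tested after each name and dashed lines at the shares of all genes. The feedback and target genes and the p38 cascade reach farthest past the dashed line for higher genes with FGF2.

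The genes with the most similar pattern were taken as the 3 with the highest Pearson r over the 8 arrays, which are 4 groups of 2, so this is a description. For Fgf2 they were 3110039M20Rik, Mlec and Abca8a, with r of 0.977, 0.976 and 0.973. For Fgf1 they were Emp3, Nusap1 and Ccdc12, with r of 0.996, 0.988 and 0.983. For Fgfr3 they were Gna13, Nsg2 and Tbc1d9b, with r of 0.991, 0.989 and 0.987, and Nsg2 had -1.36 with FGF2 and 1.16 with U0126 added. For Fgfr2 they were Grk3, Cdc42ep4 and Cdh19 (r of 0.983, 0.981 and 0.979), and for Fgfrl1 Folh1, Cox7a2 and Cox5b (r of 0.977, 0.970 and 0.969). For Il17rd they were Acsbg1, Slc8a3 and Otud6b (r of 0.976, 0.970 and 0.967), and for Fgf9 Zfp133-ps, Nabp1 and 1700037C18Rik (r of 0.990, 0.969 and 0.966).

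Cell type markers moved between the same groups, and their counts stand beside 18.9% of all genes higher and 19% lower with FGF2. All 12 astrocyte markers were above the filter, and with FGF2 11 were lower and 1 higher, with Aqp4 at -1.92 ± 0.06 and Gja1 at -1.28 ± 0.06. Their summed signal was 18877 to 18904 array units with FGF2 and U0126, 15901 to 15906 with FGF2 and SB202190, 16385 to 16549 with FGF2 and 27349 to 27554 with vehicle. With U0126 against FGF2, 7 of the 12 were higher and 1 lower, beside 11.7% and 10.5% of all genes. Ependymal and choroid plexus markers were lower in 8 of 9 cases with FGF2 and higher in 6 of 9 with U0126 against FGF2, with a median of 0.71 in the second comparison. Their sums were 4493 to 5671 with FGF2 and U0126, 3736 to 4478 with FGF2 and SB202190, 3719 to 4621 with FGF2 and 6703 to 6982 with vehicle.

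Against FGF2 alone SB202190 lowered 2 of the 12 astrocyte markers, Aqp4 at -0.28 ± 0.06 and Gfap at -0.24 ± 0.06, and 2 of the 9 ependymal markers, Foxj1 at -0.70 ± 0.09 and Cfap126 at -0.42 ± 0.07, beside 1.73% of all genes. Meningeal fibroblast and pericyte markers were lower in 7 of 10 cases with FGF2, with sums of 6520 to 6603 with FGF2 and U0126, 5817 to 6674 with FGF2 and SB202190, 6715 to 7161 with FGF2 and 12312 to 12503 with vehicle. Oligodendrocyte precursor markers had sums of 3380 to 3485 with FGF2 and U0126, 3760 to 3869 with FGF2 and SB202190, 4283 to 4427 with FGF2 and 2157 to 2181 with vehicle. Of their 6 tested members 2 were higher with FGF2, Olig2 at 1.86 ± 0.08 and Olig1 at 0.91 ± 0.06. Lhfpl3 was lower at -0.88 ± 0.21. The other 3, Pdgfra, Cspg4 and Sox10, were not called, and the list's median was -0.11. In the sums Olig1 alone had 1634 ± 10.4 array units with vehicle and 3212 ± 64.3 with FGF2. Of 5 neuron markers 2 were higher and 1 lower with FGF2, with Tubb3 at 1.28 ± 0.17, Stmn2 at 0.15 ± 0.05 and Map2 at -0.31 ± 0.08. Of 5 endothelial markers 1 was higher, Esam at 1.84 ± 0.22, and 1 lower, Kdr at -1.72 ± 0.34. Of 3 microglia markers 0 were called. Below the filter were 7 of 10 microglia, 3 of 8 endothelial, 5 of 10 neuron, 5 of 8 named myelinating oligodendrocyte and 2 of 8 oligodendrocyte precursor markers, among them the neuron markers Rbfox3, Snap25 and Slc17a7. The part of such shifts in the values of the member genes was not tested.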

How the data were processed

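Transcripts were measured on 8 Affymetrix arrays with 45101 probe sets, in 4 groups of 2, taken from the sample descriptions. The deposited values are signal intensity on a linear scale, 1 per probe set and array, and their trimmed mean (2% left out at each end) was the same on every array. What algorithm made them is not given in the sources used here. Through the platform annotation 34958 probe sets had 1 symbol, and 932 with several and 9211 with none were not named. Intensities were quantile normalized after log2(value + 1.77), the pseudocount being the 10th percentile of all values, which understates changes of low genes. Each of 18194 genes was represented by its probe set of highest mean, and those above the 40th percentile (log2 of 3.83) were tested. 1 gene that normalization tied to a single value was left out, leaving 13173.

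All 6 comparisons came from 1 fit with limma 3.58.1 (lmFit, eBayes with trend; R 4.3.3), with Benjamini-Hochberg adjustment over all genes per comparison and a threshold of 0.05. A second fit held all 27059 probe sets above the filter. The procedure was tested on simulated data. Figures were drawn with matplotlib 3.10.9 (Python 3.11.15). Promoter windows came from RefSeq, GRCm38.p6. Alternatives were the normalization, pseudocount, filter, variance trend, arrays in the fit, choice of probe set, replicate block and each array left out. Deviations of same-numbered arrays correlated at -0.03 to 0.03, so the numbers were not taken as pairs. Named were all members and, of each pathway list and comparison, up to 3 called genes, plus the 3 genes most alike each of the 7 members called between FGF2 and vehicle, so none for Fgfr1 and Fgfr4. Members and lists were chosen with earlier results of these data known.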

Additional observations from a re-analysis of the deposited data

How the results depend on the processing

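Of the 54 changes (9 genes in 6 comparisons) under up to 20 alternatives, 972 values kept their direction and side of the threshold or were not called either way, 47 lost the call, 18 gained it and 1 reversed. The reversed one was Fgfr2 between U0126 and SB202190, at -0.12 with the mean of its probe sets. The mean took in every probe set of a gene, also those below the filter. Both tested probe sets of Fgfr2 were positive in that comparison, at 0.32 and 0.05. For FGF2 against vehicle, U0126 against FGF2 and U0126 against SB202190, the calls of Fgf2 and Fgfr3 held under every alternative that tested the gene. The alternative with all probe sets could hardly lose a call, as it took the smallest adjusted p among them. Leaving out probe sets ending in _s_at, _x_at or _a_at left Fgfr2, Fgfr4, Fgfrl1 and Fgf2 untested. Loss of their calls was fixed in advance there, so the lower counts in that setting say nothing about these genes. Of the 9 members, 7 were called between FGF2 and vehicle, 3 with the mean of the probe sets, 4 without probe sets ending in _s_at, _x_at or _a_at, when 5 members were tested, and 5 to 7 with an array left out. Between SB202190 and FGF2 the count of 2 became 0 with median centring, without the variance trend and without those probe sets, 1 with the mean, and 0 to 2 with an array left out. Between U0126 and FGF2 the count of 4 became 2 with the mean and 3 to 5 with an array left out. Between U0126 and SB202190 the count of 5 became 3 with the mean, 2 without those probe sets and 4 to 6 with an array left out. Against vehicle, the U0126 count of 2 became 1 with median centring or the mean, 0 without those probe sets, and 1 to 2 with an array left out, and the SB202190 count of 4 became 6 with median centring, 5 with all probe sets, 2 without those probe sets and 3 to 4 with an array left out. With the replicate number as a block, 5 members were called between U0126 and FGF2 and 6 between U0126 and SB202190, Il17rd being added in both (adjusted p = 0.0466 and 0.0329), and the block changed no other call. Over all genes, SB202190 against FGF2 gave 404 calls, 235 with median centring, 170 with the mean and 86 to 396 with an array left out. Without the variance trend limma called 0, and 1818 genes had an unadjusted p under 0.05. U0126 against FGF2 gave 2925 calls, 1620 without the trend, 1782 with the mean and 1793 to 2942 with an array left out. U0126 against SB202190 gave 2996, 1728, 1783 and 1825 to 3019 under the same settings. With median centring the share of calls that were higher was 73.1% in place of 49.9% for FGF2 against vehicle, 79.9% in place of 52.5% for U0126 against vehicle, and 73.9% in place of 50.3% for SB202190 against vehicle. Median signals were 27.8 and 26.6 on the vehicle arrays and 22.3 to 24.3 on the others. Centring on the median therefore lowered vehicle against every other group. Why the medians differed was not tested. Low signals limit Fgf9, Fgfr4 and the second probe set of Il17rd.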

Other observations

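6 probe sets of the member genes lay below the filter and entered no test. Fgfr4 had 4 of them, with signals between 0.491 and 18.9 array units on the 8 arrays. The third probe set of Fgfr2, 1443211_at, had 2.39 and 2.97 array units with FGF2 and U0126, 12.2 and 2.34 with FGF2 and SB202190, 16 and 3.08 with FGF2, and 7.99 and 12.8 with vehicle. The third probe set of Fgf1, 1441042_at, had 1.46 and 2.54 with FGF2 and U0126, 1.88 and 21 with FGF2 and SB202190, 4.45 and 20.4 with FGF2, and 13.6 and 3.49 with vehicle. No order was read from them.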
